A study of Mus musculus with 8 samples.

Results

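The genes described here encode keratins and desmosome proteins of the trophectoderm, the outer epithelium of the blastocyst. They were chosen by name: the keratins *Krt8*, *Krt18*, *Krt7* and *Krt19*, the desmosomal cadherins *Dsg2* and *Dsc2*, and the junction plaque proteins *Dsp*, *Jup*, *Pkp2* and *Ppl*. These are 10 of the 22810 genes in the deposited counts, and all 10 had reads. RNA was extracted from blastocysts lysed one by one at E3.5 (embryonic day 3.5), which came from natural mating and had not been cultured. In the forward cross the mother was C57BL/6 (B6) and the father Mus musculus castaneus (cast), and 3 embryos carried the numbers 1, 2 and 3. In the reverse cross the mother was cast and the father B6, and 5 embryos carried the numbers 1, 2, 3, 5 and 7. The study left out the samples with the missing numbers, 1 for a low share of mapped reads and 1 for too few reads. No embryo was treated or genetically modified, the embryos were not matched for sex, and whether embryos shared a litter is not given in the sources used here. The counted reads span positions at which the strains differ (SNPs), so each read could be given to the B6 or the cast allele. The B6 allele was the maternal one in forward embryos and the paternal one in reverse embryos. A preference for one parent therefore turns the B6 share around between the crosses, whereas a preference for one strain keeps it.

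Keratins form intermediate filaments as obligate pairs of a type II chain (KRT8, KRT7) and a type I chain (KRT18, KRT19), and KRT8 with KRT18 is the pair of simple epithelia. Desmosomes are spot-like junctions that fasten these filaments to the cell surface. The cadherins DSG2 and DSC2 bridge neighbouring cells, plakoglobin (JUP) and plakophilin 2 (PKP2) bind their tails, and desmoplakin (DSP) ties the plaque to keratin. Periplakin (PPL) is a relative of desmoplakin that also links junctions to filaments. In the mouse embryo the trophectoderm is the tissue that builds a keratin network and desmosomes before implantation, when it has to hold the fluid of the blastocyst cavity.

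*Krt8* (chr15:101996698-102004482, minus strand, mm10) and *Krt18* (chr15:102028180-102032027, plus strand) are neighbours that point away from each other, with 23697 bases and 0 annotated genes between them. *Krt7* lies on the same chromosome (chr15:101411043-101430313, plus strand). *Krt19* (chr11:100140810-100148665) and *Jup* (chr11:100368958-100397763) are both on the minus strand of chromosome 11, *Dsp* is on the plus strand of chromosome 13 (chr13:38151294-38198577), and *Pkp2* (chr16:16213318-16272712, plus strand) and *Ppl* (chr16:5086291-5132421, minus strand) share chromosome 16. The stretches just upstream of *Krt8* and *Krt18* are shown because these neighbours had by far the most reads of the group and were low together in the same embryo. They come from RefSeq (GRCm38.p6), run 5′ to 3′ along the strand of the gene, and end before the first base of the gene as GENCODE annotates it. In *Krt8* (chr15:102004483-102004592, minus strand) the capitals mark the letters of a GATA motif, and in *Krt18* (chr15:102027966-102028179, plus strand) those of a TFAP2 motif.
Krt8: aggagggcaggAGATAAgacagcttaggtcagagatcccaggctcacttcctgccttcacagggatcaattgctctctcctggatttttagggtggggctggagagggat
Krt18: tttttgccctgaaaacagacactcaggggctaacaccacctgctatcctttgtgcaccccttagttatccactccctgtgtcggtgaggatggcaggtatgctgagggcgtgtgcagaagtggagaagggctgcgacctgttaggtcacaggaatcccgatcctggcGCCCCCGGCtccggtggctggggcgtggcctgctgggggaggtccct

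The RefSeq table held windows of 250 bases upstream of the RefSeq start for 5 of the 10 genes (*Krt8*, *Krt18*, *Krt7*, *Dsp* and *Jup*). The GENCODE start can lie further upstream, so that 140 bases of the *Krt8* window, 36 of the *Krt18* window and all 250 of the *Krt7* window fall inside the positions given above for the gene. In these windows, 6 motifs of factors known from trophectoderm or from promoters in general were searched on both strands. The window of *Krt8* held the GATA letters AGATAA, present in 9.99% of all 32851 windows, and that of *Krt18* held the TFAP2 letters GCCNNNGGC, present in 13.7%. The TFAP2 letters also stood in the windows of *Krt7* (2 matches) and *Dsp* (1 match). The letters GGGCGG, bound by SP and KLF factors and present in 32.7% of windows, occurred 4 times in *Krt7*, 4 times in *Dsp* and 2 times in *Jup*. None of the 5 windows held the TEAD letters CATTCC, present in 12.6% of windows. The letters TGANTCA of AP-1 (6.75% of windows) were in none of the 5 either. The same holds for TATAAA, a core promoter element found in 12.4% of windows. Matches of GCCNNNGGC and GGGCGG can overlap in GC-rich sequence, and the GC content ran from 58.0% in *Krt8* to 72.4% in *Dsp*, against a median of 52.4% over all windows. A match is a run of letters and was not tested for binding.

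The libraries held 1060063 to 1632695 SNP-spanning reads per embryo, of which 57.4 to 58.3% were from B6. The median B6 share per gene was 55.1 to 56.8% over 5609 autosomal genes with at least 20 reads in every embryo. Levels are given as CPM, the SNP-spanning reads of a gene for every 1000000 autosomal reads of the embryo after TMM scaling. They depend on how many SNPs a transcript holds, so levels are compared between embryos and not between genes. The 10 trophectoderm transcription factors of the marker list had reads in every embryo, apart from *Gata2* with 0 in reverse embryo 1. They summed to 1203 to 1883 CPM per embryo. Markers of epiblast (543 to 1042 CPM) and primitive endoderm (176 to 333 CPM) were present in every embryo too, because whole embryos were sequenced. The reads of the 10 keratin and desmosome genes made up 0.367 to 0.478% of all reads in 7 embryos and 0.115% in reverse embryo 1. This embryo also stood apart beyond these genes: it was the lowest of the 8 embryos for 31.4% and the highest for 28.6% of 10484 genes, where no other embryo passed 18.3% on either side. The values below include it unless they are said to be without it.

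*Krt8* and *Krt18*, the keratin pair of simple epithelia, had 1126 to 2452 CPM in 7 embryos and far less in reverse embryo 1. *Krt8* measured 1557, 1878 and 2452 CPM in forward embryos 1, 2 and 3 and 275, 2069.6, 2157, 1989 and 2075 CPM in reverse embryos 1, 2, 3, 5 and 7. Reverse embryo 1 lay far below all others, and the other 4 reverse embryos were close together. The forward mean was 1963 ± 453 CPM (SD, n = 3). The reverse mean was 1713 ± 806 CPM (SD, n = 5), and 2073 ± 68.6 CPM (SD, n = 4) without reverse embryo 1. The coefficient of variation (CV) of *Krt8* over the reverse embryos was 47.1% with this embryo and 3.31% without it.

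*Krt18*, the partner chain of *Krt8*, measured 1525, 2062 and 1971 CPM in the forward embryos and 172, 1432, 1917, 1126 and 1191 CPM in the reverse embryos in the same order. The lowest was again reverse embryo 1, and 3 of the other 4 reverse embryos lay below every forward embryo. The means were 1853 ± 287 CPM (SD, n = 3) and 1168 ± 637 CPM (SD, n = 5), or 1416 ± 359 CPM (SD, n = 4) without reverse embryo 1. The number of *Krt8* reads per *Krt18* read was 1.02, 0.911 and 1.24 in forward and 1.60, 1.44, 1.13, 1.77 and 1.74 in reverse embryos. Only reverse embryo 3 lay within the forward range of this ratio, which was examined after its values were seen and was not tested.

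*Krt7* and *Krt19*, a further type II and type I chain of simple epithelia, had few reads. *Krt7* measured 65.1, 38.0 and 48.1 CPM in forward and 7.83, 16.01, 29.8, 17.2 and 11.6 CPM in reverse embryos, from 12 to 106 reads per embryo. *Krt19* had 0 to 9 reads per embryo, 30 in all, and was at 0 in forward embryo 2 and reverse embryo 1. A count of 0 there allows up to 2.65 and 1.81 CPM (3 reads), and *Krt19* passed no filter on low counts and was not tested. Among further keratins, *Krt23* had 7 reads, all in reverse embryo 3, and of the keratins of stratified epithelia *Krt10* had 0 to 35 reads per embryo, while *Krt4*, *Krt6a* and *Krt13* together had reads in 4 embryos, at most 4 each.

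**Figure D1:**
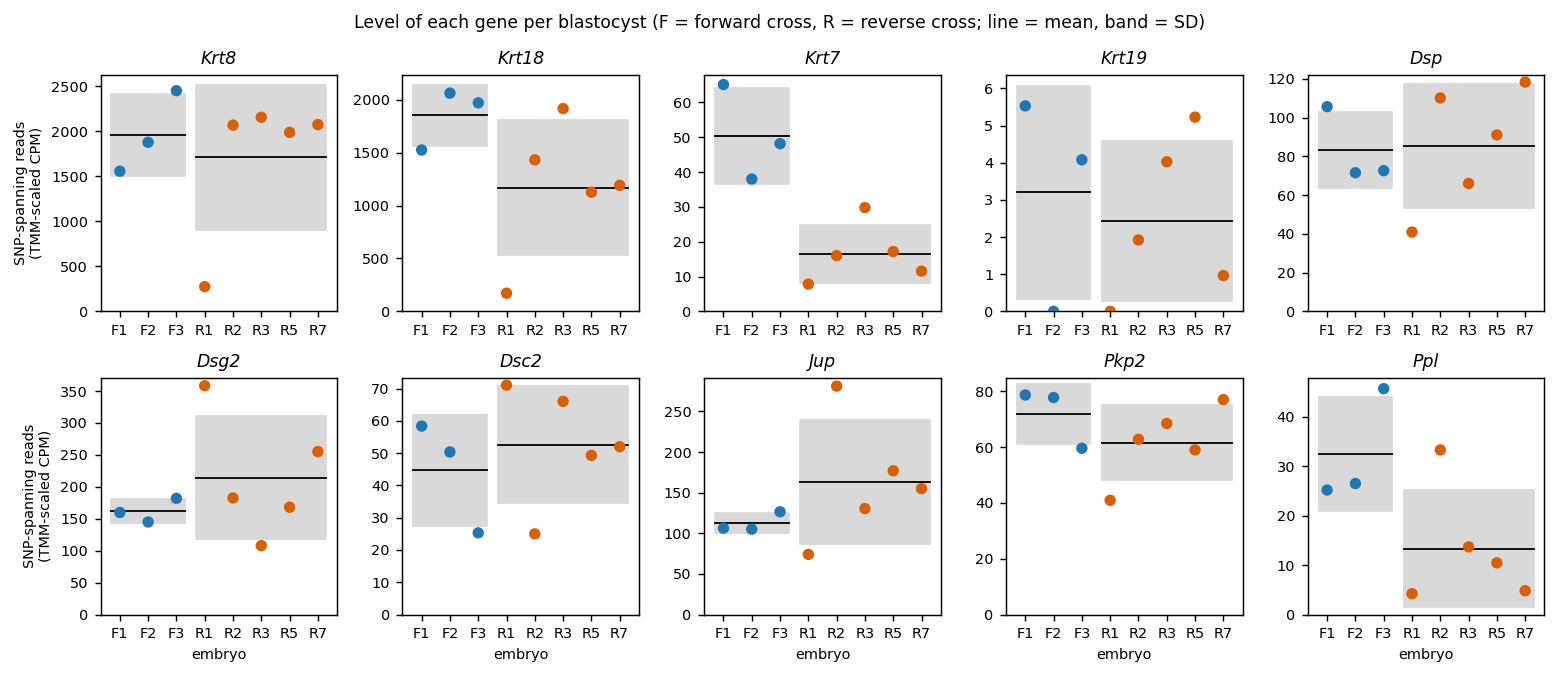
Level of each of the 10 genes (y axis, TMM-scaled CPM from SNP-spanning reads) in each blastocyst (x axis, F for forward and R for reverse embryos). Points are embryos, lines the means and bands 1 SD; *Krt8* and *Krt18* drop to 275 and 172 CPM in R1, and the forward points of *Krt7* all lie above its reverse points.

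Among the desmosomal cadherins, *Dsg2* measured 159.8, 145 and 182 CPM in forward and 358, 183, 108, 168 and 255 CPM in reverse embryos. *Dsc2*, the other cadherin, measured 58.4, 50.4 and 25.3 CPM in forward and 71.1, 25.0, 66.0, 49.3 and 52.0 CPM in reverse embryos. Both were highest in reverse embryo 1, where the keratins were lowest, and the ranges of the crosses overlapped for both. The means of *Dsg2* were 162 ± 18.7 CPM (SD, n = 3) and 214 ± 96.0 CPM (SD, n = 5), or 178 ± 60.5 CPM (SD, n = 4) without reverse embryo 1. *Dsg2* overlaps *Gm16090*, an antisense RNA on the opposite strand whose counts ran beside it (82 to 294 reads per embryo, highest in reverse embryo 1 and lowest in reverse embryo 3, as for *Dsg2*). The sources used here do not say if strand was used in counting, so reads of the pair cannot be told apart.

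The plaque genes differed in how steady they were between embryos. Desmoplakin (*Dsp*) measured 106, 71.6 and 72.6 CPM in forward and 40.9, 110.2, 66.0, 91.1 and 118 CPM in reverse embryos. Plakoglobin (*Jup*), shared by desmosomes and adherens junctions, measured 106, 105 and 126 CPM in forward and 74.1, 281, 130.5, 177 and 155 CPM in reverse embryos. The forward embryos of *Jup* were close together, with a coefficient of variation of 10.7%, and reverse embryo 2 was the highest of all. Plakophilin 2 (*Pkp2*) measured 78.7, 77.8 and 59.6 CPM in forward and 40.9, 62.8, 68.5, 59.0 and 77.01 CPM in reverse embryos. Periplakin (*Ppl*) had 5 to 56 reads per embryo and measured 25.2, 26.5 and 45.7 CPM in forward and 4.22, 33.3, 13.7, 10.5 and 4.81 CPM in reverse embryos. *Pkp2* was the steadiest of the 10 genes, with a CV of 19.6% over the 8 embryos. The CV was 31.1% for *Dsp*, 34.1% for *Dsc2*, 37.0% for *Krt8*, 40.1% for *Dsg2*, 43.4% for *Krt18*, 44.0% for *Jup*, 68.7% for *Krt7* and 71.8% for *Ppl*, against a median of 42.9% over all 10484 genes. Genes with few reads have larger counting error, and the median was 32.6% over the 2409 genes with a mean of at least 100 CPM. Without reverse embryo 1 the CV was 12.7% for *Pkp2*, 13.5% for *Krt8*, 23.2% for *Dsp*, 23.8% for *Krt18*, 26.2% for *Dsg2*, 33.8% for *Dsc2*, 39.8% for *Jup*, 60.6% for *Krt7* and 62.3% for *Ppl*.

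The crosses were compared in total reads, which asks whether exchanging the mother and father changes the level of a gene. None of the 9 genes tested was called by the edgeR quasi-likelihood test at an adjusted p of at most 0.1, the threshold used throughout, and 0.0668% of all genes were called (7 of 10484). Of the 9, 1 gene, *Krt7*, had an unadjusted p under 0.05, as did 7.15% of all genes (750). Forward embryos had a mean of 50.4 ± 13.7 CPM (SD, n = 3) and reverse embryos a mean of 16.5 ± 8.33 CPM (SD, n = 5). Its log2 fold change of reverse over forward was -1.60 (SE 0.44, edgeR adjusted p = 0.361). DESeq2 called it, as 1 of 9 genes, with an adjusted p of 0.0867, and called 136 of all 10484 genes. *Krt7* was also the only one of the 9 whose crosses did not overlap, which held for 6.78% of all genes. In edgeR its adjusted p ranged from 0.108 without reverse embryo 1 to 0.999 without forward embryo 1. Uterine and oviduct epithelium also makes simple keratins, and the 8 markers listed for it summed to 179 CPM in forward embryo 1, where all 8 had reads, and to 86.5 to 120.3 CPM in the others, where 3 to 5 had reads. Most of this sum was *Wfdc2* (57.4 to 135 CPM), and *Clca1* was at 0 outside forward embryo 1. Reads of the 8 markers were 50.2, 49.6 and 54.9% maternal in forward embryos 1, 2 and 3 and 36.9 to 68.0% in reverse embryos. In forward embryo 1, where B6 was maternal, *Wfdc2* was 36.1% B6 and *Clca1* 100% B6. Macrophage markers summed to 847 CPM in forward embryo 1, with 99.8% of reads maternal, to 41.5 and 58.8 CPM in forward embryos 2 and 3 and to 1.81 to 6.44 CPM in reverse embryos. Cumulus markers summed to 9.79 to 22.4 CPM. The part of such cells in the level of *Krt7* was not tested, and its maternal share in forward embryo 1 was the lowest of the forward embryos (60.4%).

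The log2 fold change between crosses was -1.26 (SE 0.61) for *Ppl*, -0.66 (SE 0.53) for *Krt18*, 0.55 (SE 0.38) for *Jup* and 0.43 (SE 0.38) for *Dsg2*, with edgeR adjusted p values of 0.709 to 0.835. Without reverse embryo 1 it was -1.01 for *Ppl*, -0.38 for *Krt18*, 0.74 for *Jup* and 0.15 for *Dsg2*, and none of these was called. For *Krt8*, *Dsp*, *Dsc2* and *Pkp2* it lay between -0.21 and 0.26, within the spread between embryos. Each estimate is reverse over forward, and the median was -0.18 over the 9 genes and 0.06 over all genes.

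Strain was the clearest allelic difference in this group. Reads of *Krt8* came mostly from B6 in all 8 embryos: 84.6, 81.2 and 79.4% in forward embryos, where B6 was maternal, and 91.9, 81.9, 78.0, 77.02 and 80.6% in reverse embryos, where B6 was paternal. Forward embryos averaged 81.7 ± 2.61% B6 (SD, n = 3) and reverse embryos 81.9 ± 5.92% (SD, n = 5), or 79.4 ± 2.24% (SD, n = 4) without reverse embryo 1. In parental terms, 81.7% of *Krt8* reads were maternal in one cross and 18.1% in the other. *Dsg2* behaved alike, with B6 shares of 78.5, 84.1 and 72.2% in forward and 73.3, 68.1, 72.4, 74.7 and 73.2% in reverse embryos. Its mean was 78.3 ± 5.98% (SD, n = 3) and 72.3 ± 2.51% (SD, n = 5), so that no embryo of either cross was near equal shares. The overlapping antisense gene *Gm16090* had B6 shares of 66.5 to 86.0%. Reads of this pair cannot be told apart, so the strain difference cannot be assigned to *Dsg2* alone.

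In the edgeR fit over 16 allele libraries with strain and parent as terms, the log2 fold change of B6 over cast was 1.72 (SE 0.44, adjusted p = 0.00980) for *Krt8* and 1.24 (SE 0.33, adjusted p = 0.0134) for *Dsg2*. These were the 2 of 9 genes called, where 15.4% of 12566 genes were called in all and 10.9% toward B6. The median log2 fold change was 0.24 over the 9 genes and 0.06 over all genes. When embryo was added as a term, so that its alleles were paired, 4 of the 9 genes were called (25.6% of all genes). *Krt8* then had a log2 fold change of 1.84 (adjusted p = 4.68e-12) and *Dsg2* of 1.28 (adjusted p = 1.10e-06), joined by *Krt18* toward B6 (0.54, adjusted p = 4.94e-06) and *Jup* toward cast (-0.50, adjusted p = 0.0917). The authors aligned to mm10, which is B6 sequence, and allele libraries were scaled separately to offset the higher B6 total. With 1 library size per embryo the median log2 fold change over all genes moved by 0.339 toward B6, and 2291 of 2620 calls were toward B6 instead of 1372 of 1935. *Krt8* (2.05) and *Dsg2* (1.59) were then still called, and no other of the 9 genes was. *Krt8* also has a processed pseudogene, *Krt8-ps*, and the exclusion of reads that map to several places can remove reads of either allele, which was not tested.

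*Krt18* also leaned to B6 in every embryo, but less: 66.8, 63.8 and 59.3% in forward and 68.1, 69.4, 63.5, 64.5 and 66.5% in reverse embryos. Its mean was 63.3 ± 3.76% (SD, n = 3) and 66.4 ± 2.43% (SD, n = 5), above the 57.4 to 58.3% of all reads in each embryo. The fit gave 0.53 (SE 0.42, adjusted p = 0.510 by edgeR), and 0.53 with an adjusted p of 0.0903 without reverse embryo 1. The difference between the neighbours was not tested.

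**Figure D2:**
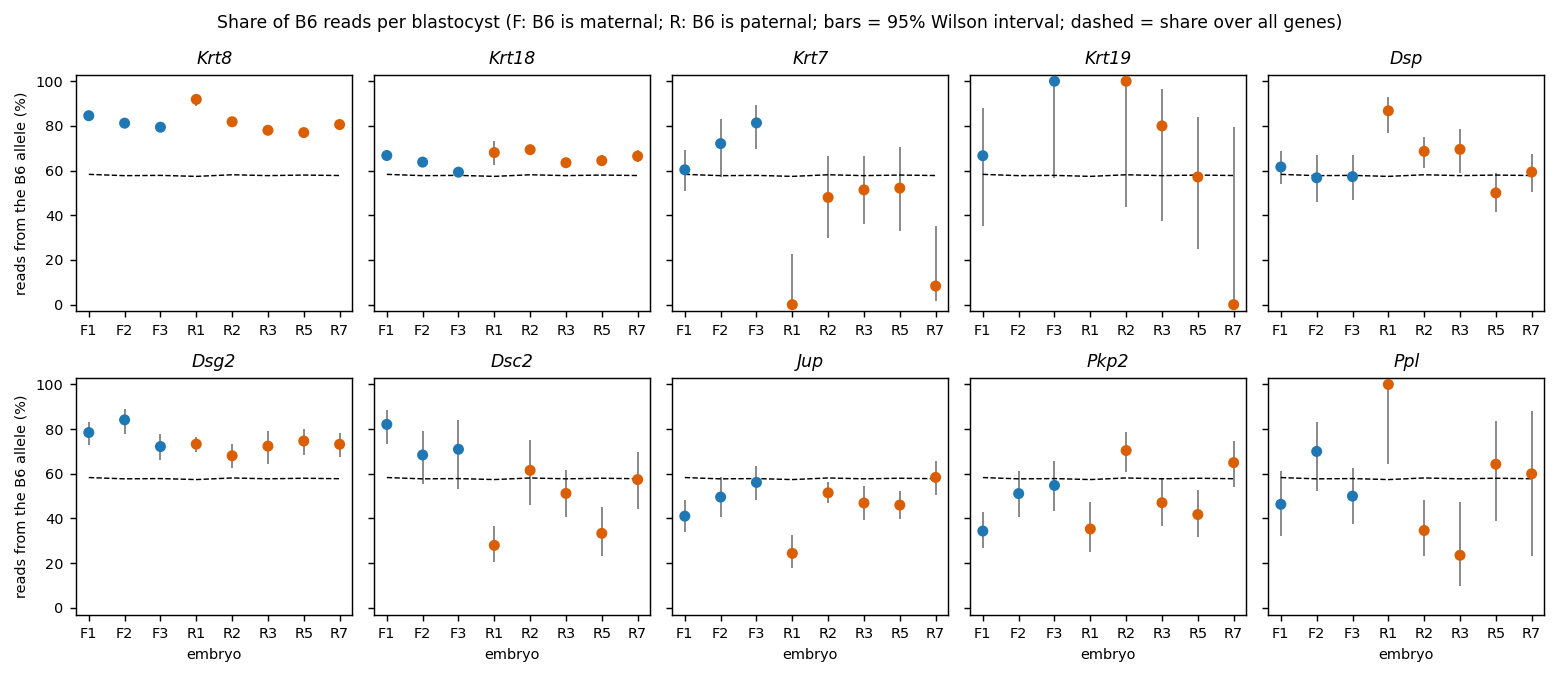
Share of reads from the B6 allele (y axis, %) in each blastocyst (x axis, F for forward and R for reverse embryos), with 95% Wilson intervals; the dashed line is the B6 share over all genes. *Krt8* and *Dsg2* stay high in both crosses, while *Dsc2* is high in the forward embryos and lower in the reverse ones.

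Parent of origin was compared in the same fit. None of the 9 genes was called by edgeR, and none by DESeq2, where 1.42% of 12566 genes were called by edgeR (178). *Dsc2* alone had an unadjusted p under 0.05, as did 7.31% of all genes (919). Its maternal share was 82.1, 68.4 and 71.0% in forward and 72.0, 38.5, 48.8, 66.7 and 42.6% in reverse embryos, so all forward and 2 of 5 reverse embryos had more maternal reads. The log2 fold change of paternal over maternal was -0.97 (SE 0.38, edgeR adjusted p = 0.422), and -0.93 with an adjusted p of 0.145 when a term for each embryo was added. Over its alternatives the adjusted p of *Dsc2* stayed between 0.145 and 1.

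*Krt7* had maternal shares of 60.4, 72.1 and 81.4% in forward and 100, 52.0, 48.6, 47.8 and 91.7% in reverse embryos. In reverse embryo 1 all 13 reads were maternal, which allows a paternal share of up to 23.1%, and in reverse embryo 7 there were 12 reads. The log2 fold change was -0.91 (SE 0.59, edgeR adjusted p = 0.988). The remaining 7 genes had log2 fold changes between -0.33 (*Ppl*) and 0.21 (*Pkp2*), all with edgeR adjusted p values of 1. The median over the 9 genes was -0.09, and over all genes -0.01.

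Equal use of the parental alleles was tested directly, against the null hypothesis of a difference of at least 2-fold (a log2 margin of 1). The test called 6 of the 9 genes, where 35.4% of 12566 genes were called. With a stricter filter (10 reads in at least 4 allele libraries) it called 6 of the 9 and 5105 of 9341 genes. Adding embryo as a term gave 7 of 9, *Ppl* being the addition, and 45.3% of all genes. The 6 were *Pkp2* (edgeR adjusted p = 0.0363), *Jup* (0.0388), *Dsp* (0.0437), *Dsg2* (0.0540), *Krt18* (0.0681) and *Krt8* (0.0743). *Krt8* and *Dsg2*, which differed between the strains, were thus among those called equal between the parents. *Dsc2* (0.581), *Krt7* (0.552) and *Ppl* (0.263) were not called as equal and not called as biased. With embryo as a term, the edgeR adjusted p was 2.26e-07 for *Krt8*, 1.06e-09 for *Krt18*, 0.000379 for *Dsg2* and 0.00890 for *Dsp*. Embryos were left out only in the fit without that term. In that fit the calls depended on the number of forward embryos. Without forward embryo 1, 2 or 3 the test called 1, 1 and 0 of the 9 genes, and 2087, 1832 and 1642 of all genes. *Krt8* was also not called without reverse embryo 2, 5 or 7 (edgeR adjusted p = 0.105 to 0.116), and *Krt18* not without reverse embryo 3, 5 or 7 (0.110 to 0.112).

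**Figure D3:**
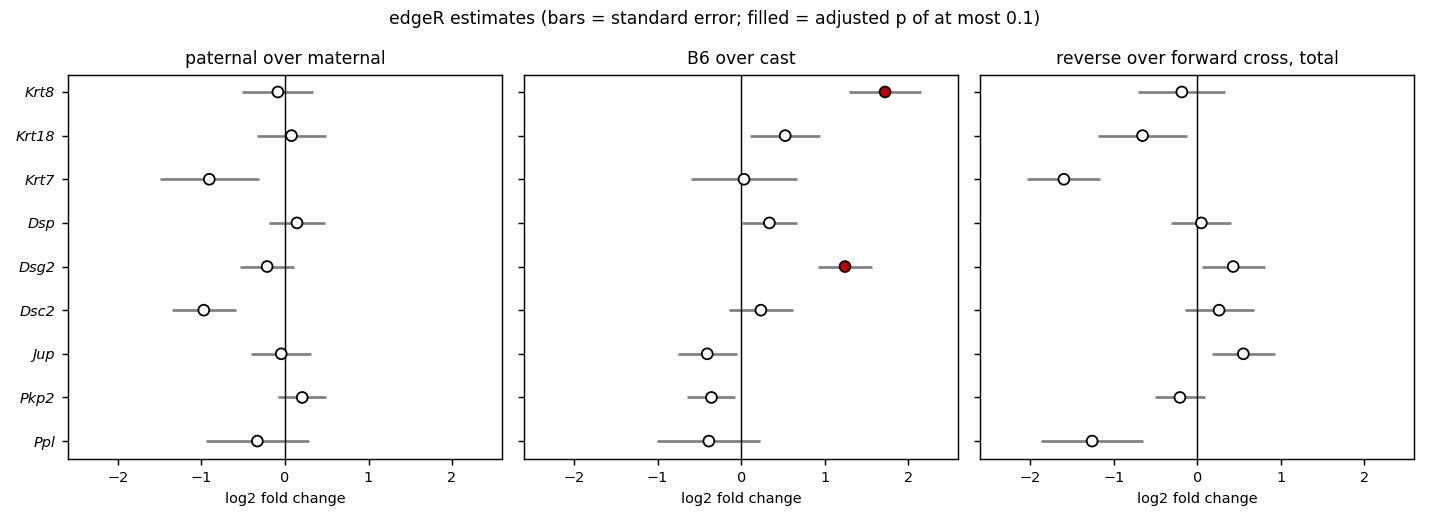
Log2 fold changes (x axis) of the 9 tested genes for paternal over maternal alleles, B6 over cast alleles and the reverse over the forward cross, from edgeR; bars are standard errors and filled points have an adjusted p of at most 0.1. Only *Krt8* and *Dsg2* between the strains are filled.

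The allele shares of the plaque genes were compared with the spread that read sampling gives. *Dsp* had B6 shares of 61.6, 56.8 and 57.3% in forward and 86.8, 68.6, 69.5, 50 and 59.3% in reverse embryos. *Jup* had 41.0, 49.6 and 56.1% and then 24.4, 51.5, 46.9, 46.0 and 58.4%, and *Pkp2* had 34.4, 51.1 and 54.8% and then 35.3, 70.4, 47.1, 41.8 and 65.0%, in the same order. The SD between the 8 embryos was 2.36, 2.75 and 2.41 times the SD that counting alone gives. This ratio was 4.79 for *Krt8*, 2.91 for *Krt7*, 2.81 for *Dsc2*, 2.22 for *Krt18*, 1.76 for *Ppl* and 1.66 for *Dsg2*. Without reverse embryo 1 it was 1.48 for *Dsp*, 1.60 for *Jup*, 2.36 for *Pkp2*, 3.22 for *Krt8*, 2.93 for *Krt18* and 1.35 for *Ppl*. Single blastocysts give little RNA and the reads carry no molecular identifiers, so counting error understates the sampling of molecules. *Ppl* had B6 shares from 23.5 to 100%, from 5 to 56 reads per embryo, and its crosses overlapped.

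Reverse embryo 1 separated the group into genes that were low and genes that were high in it. It was the lowest of the 8 embryos for 7 of the 9 genes (*Krt8*, *Krt18*, *Krt7*, *Dsp*, *Jup*, *Pkp2* and *Ppl*) and the highest for the cadherins *Dsg2* and *Dsc2*, where it was lowest for 31.4% and highest for 28.6% of all genes. The median of the other 4 reverse embryos was 7.55 times its level for *Krt8* and 7.64 times for *Krt18*. Only 6.92 and 6.86% of genes had a ratio as low or lower. For *Ppl*, *Dsp*, *Jup*, *Krt7* and *Pkp2* the median was 2.86, 2.46, 2.24, 2.12 and 1.60 times its level, which 18.6 to 34.5% of genes reached. Its *Dsg2* level was 2.04 times and its *Dsc2* level 1.40 times the median of the other reverse embryos, which 20.9 and 34.5% of genes reached in that direction. The place of reverse embryo 1 is open to counting error for *Ppl*, *Krt7* and *Dsc2*. *Ppl* had 4.22 CPM from 7 reads there and 4.81 CPM from 5 reads in reverse embryo 7. *Krt7* had 13 reads there and 12 in reverse embryo 7, and *Dsc2* 71.1 CPM there and 66.0 CPM in reverse embryo 3. In whole embryos fewer cells of a type and less RNA per cell cannot be told apart.

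The allele shares of reverse embryo 1 were at an extreme as well. Its *Krt8* reads were 91.9% B6 (95% Wilson interval 89.0 to 94.1%), above the intervals of all other embryos, the highest of which ended at 85.9%. Of the 7 genes with at least 20 reads in every embryo, *Krt8* and *Dsp* had their highest and *Dsc2* and *Jup* their lowest B6 share in it. Such an extreme was found for 43.8% of 5609 genes.

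Genes near this group in function were compared from fixed lists, and those named for reverse embryo 1 were chosen after their values were seen. The 3 further desmosome genes with enough reads, *Pkp3*, *Perp* and *Evpl*, were all lowest in reverse embryo 1, as were 31.4% of all genes. *Perp* measured 75.9 CPM there against 85.1 to 411 CPM elsewhere. *Pkp3* (0 reads there, 4 to 41 elsewhere) and *Evpl* (12 reads there, 10 to 36 elsewhere) had few reads, so their order is open to counting error. Summed, the desmosome genes outside the group gave 83.1 CPM there and 116 to 446 CPM in the other embryos. Adherens junction genes went the other way: 5 of 7 (*Ctnna1*, *Ctnnb1*, *Ctnnd1*, *Vcl* and *Pkp4*) were highest in reverse embryo 1, against 28.6% of all genes, and none lowest. The adherens junction list summed to 2353 CPM there against 1277 to 1849 CPM. The margins of *Ctnnb1* (146 CPM against at most 136 CPM) and *Ctnnd1* (53.0 against at most 46.7 CPM) were small and open to counting error. Reverse embryo 3 was the lowest for 4 of the same 7 genes, against 16.9% of all genes. Of 7 cytolinkers and other intermediate filament genes, 4 were lowest (*Plec*, *Nes*, *Lmna*, *Lmnb2*) and 3 highest (*Dst*, *Macf1*, *Lmnb1*) in reverse embryo 1.

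Of the trophectoderm transcription factors, some were lowest and some highest in reverse embryo 1. *Cdx2* measured 3.01 CPM there and 6.14 to 23.7 CPM elsewhere, *Gata3* 248 and 286 to 611 CPM, *Eomes* 44.6 and 55.1 to 364 CPM, and *Gata2* 0 and 3.07 to 21.7 CPM. *Tead4* (350.5 CPM against 194 to 307 CPM) and *Grhl2* (323 against 148 to 290.2 CPM) were highest in it. Thus 4 of the 10 factors were lowest and 2 highest, near the shares of 31.4 and 28.6% over all genes. The summed level of the 10 factors, 1250.1 CPM, was within the range of the other embryos, as were epiblast (776 CPM) and primitive endoderm (252 CPM) markers. Macrophage markers were at 1.81 CPM and uterine and oviduct markers at 94.5 CPM in this embryo, the lowest and within the range of the others. The part of RNA quality or developmental stage in this embryo was not tested.

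**Figure D4:**
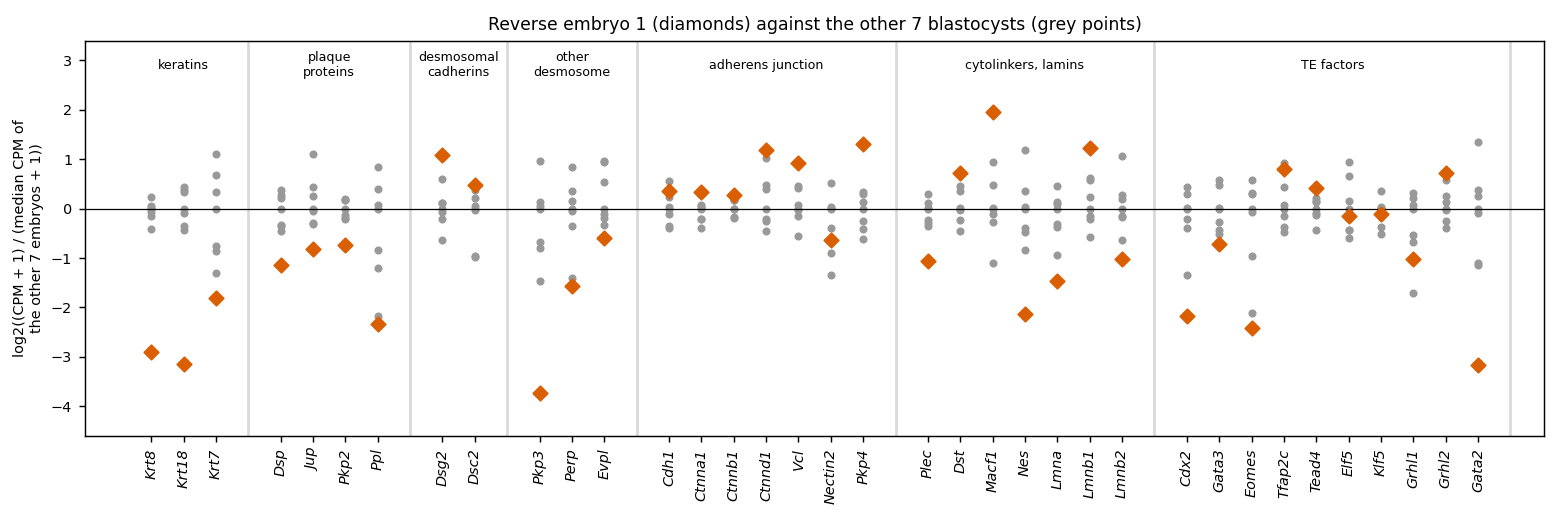
Level of each gene in reverse embryo 1 (diamonds) and the other 7 blastocysts (grey points), as log2 of CPM + 1 over the median CPM + 1 of those 7 (y axis), for the tested genes and 4 lists of related genes (x axis). The diamonds of the keratins, plaque proteins and other desmosome genes lie below the grey points and those of the desmosomal cadherins and most adherens junction genes above.

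Between the parental alleles, edgeR called 0 of 4 further desmosome genes, 0 of 7 adherens junction genes, 0 of 8 cytolinkers and other intermediate filament genes, 0 of 10 trophectoderm factors, 0 of 6 epiblast genes and 0 of 4 primitive endoderm genes tested. As equal from both parents it called 0, 5, 4, 7, 4 and 2 of these. They included E-cadherin (*Cdh1*, adjusted p = 0.0171), which founds the adherens junction, and the trophectoderm factors *Tead4* (0.0171), *Klf5* (0.0171) and *Gata3* (0.0193). Between the strains, *Klf5* (log2 fold change -0.77, adjusted p = 0.0314) was the only trophectoderm factor called, toward cast, and no gene of the desmosome, adherens junction and cytolinker lists was called. Between crosses none of the genes in these lists was called.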

How the data were processed

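RNA was sequenced with a SMART-Seq2 compatible protocol. The authors aligned reads to mm10 with STAR, excluded reads mapping to multiple locations, kept those covering annotated SNPs and deposited raw counts per gene, embryo and strain, taken from an intermediate step of Allelome.Pro. The submitters' processing notes name STAR 2.5.2b and the study's methods a later version, so which one made the files is not settled. The annotation and use of strand for counting are not given in the sources used here. Embryos were grouped by the cross in the labels. Positions came from GENCODE M21 and RefSeq by symbol (1108 genes had no match, and 21057 were autosomal). Only autosomal genes were tested.

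The 16 allele libraries (genes with at least 10 reads in at least 1 of them) were fitted with edgeR 4.0.16 in R 4.3.3 (limma 3.58.1), TMM factors, strain and parent as terms, the quasi-likelihood test with package defaults and Benjamini-Hochberg adjustment. Equivalence used a pair of one-sided tests in this fit against a log2 margin of 1. Crosses were compared on total counts (10 reads in at least 3 embryos). The p-values between crosses measure the spread between these embryos. In the main allele fit the alleles of an embryo were not paired. Its p-values therefore also take in differences in total level between embryos, beyond the spread of the allele shares. Scripts were tested on simulated data. Intervals are 95% Wilson and floors 3 reads, and both cover counting error only. DESeq2 1.42.0, RLE factors, other filters, 1 library size per embryo, a replicate block, a 1.5-fold margin and leaving out each embryo were alternatives.

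The alleles of 1 embryo are a true pair: their deviations from the group means correlated with r = 0.109 to 0.638 over 7632 genes. The genes and lists were chosen with earlier results of these data known, and so were the tests. All 10 genes are named. From each list at most 4 genes per comparison that passed an adjusted p of at most 0.1 are named, by lowest adjusted p, and others only where a result turns on them.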

Additional observations from a re-analysis of the deposited data

Results flagged for a closer look

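The level of *Krt8* in reverse embryo 1, 275 CPM, lay far from the other 4 reverse embryos: its gap to the nearest of them was 0.911 of the range of all 5, above the 95% critical value of Dixon's test of 0.710. Chance alone marks about 1 in 20 such groups, and 20 values were examined in this way. The embryo was the lowest of 8 for 31.4% of all genes.

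The difference between maternal and paternal reads differed between the crosses for *Krt8* and *Dsg2*, by the test of the strain term. The log2 fold change of B6 over cast was 1.72 for *Krt8* (edgeR adjusted p = 0.00980) and 1.24 for *Dsg2* (edgeR adjusted p = 0.0134), with B6 above 50% of reads in 8 of 8 embryos for both.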

How the results depend on the processing

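Between the parental alleles 0 of the 9 genes were called under every alternative, while the count over all genes (178) became 406 with no filter on low counts and 391 with a replicate block, and 120 to 197 leaving out 1 embryo. Between B6 and cast the count was 2 of 9 under every alternative except 4 with the block and 3 without reverse embryo 1; over all genes (1935) it was 3212 with the block and 1206 to 2457 leaving out 1 embryo. *Krt8* and *Dsg2* were called in all of them. As equal, 6 of 9 genes were called, 7 with the block, 0 at a margin of 1.5-fold (also 0 of all genes, against 4446) and 0 to 6 leaving out 1 embryo (1642 to 5657 of all genes). Between crosses DESeq2 called 1 gene, and over all genes the count (7) was 136 with DESeq2, 143 with no filter, 0 with a stricter filter, 4 with the replicate number as a block and 2 to 152 leaving out 1 embryo (152 without reverse embryo 1 and 46 without reverse embryo 3). Numbers shared across crosses correlated with r = 0.293, -0.00335 and 0.272 and are only labels.

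Estimates that were not called changed sign for *Krt7* between strains (0.03; -0.14 with the block, -0.15 to 0.34 leaving out 1 embryo), for *Jup* between parents (-0.05; -0.155 to 0.0750), and between crosses for *Krt8* (-0.18; -0.334 to 0.0917), *Dsp* (0.05; -0.27 with the block, -0.0912 to 0.249) and *Dsc2* (0.26; -0.0161 to 0.495). The block changed no call beyond those given here and with the results. The causes were not tested.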

Other observations

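The cytolinker *Dst*, which anchors keratin filaments in other epithelial junctions, had B6 shares of 63.9, 97.6 and 93.4% in forward and 39.2, 49.6, 65.0, 49.5 and 63.9% in reverse embryos. Its log2 fold change of paternal over maternal was -1.27 (SE 0.43, edgeR adjusted p = 0.274), so it was not called. The gene was chosen after its values were seen.

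Among genes of the other lineages of the blastocyst, the epiblast genes *Tdgf1* (log2 fold change of B6 over cast 1.91, adjusted p = 4.42e-05) and *Klf4* (-0.85, adjusted p = 0.0399) were called between strains by edgeR, as 2 of 6 tested, and 0 of 4 primitive endoderm genes were. Of the lists for cells that are not part of the embryo, edgeR called *Wfdc2* (-0.95, adjusted p = 0.0428) and *Ovgp1* (4.04, adjusted p = 0.0883) of 5 uterine and oviduct genes between strains, and 0 of 2 cumulus genes. *Wfdc2* was read from both alleles, with B6 shares of 36.1, 33.8 and 40.2% in forward embryos, where B6 was maternal. It was called equal between the parents (edgeR adjusted p = 0.0363). *Ovgp1* had only 0 to 10 reads per embryo. Among 5 macrophage genes edgeR called *C1qb* (log2 fold change of paternal over maternal -7.52, adjusted p = 0.00115) and *Lyz2* (-7.38, adjusted p = 0.00122) between parents. It called *C1qb*, *Lyz2* and *Adgre1* between strains. *Lyz2* was the only listed gene called between crosses (log2 fold change of reverse over forward -6.85, edgeR adjusted p = 0.0435). Most reads of these genes were in forward embryo 1: 1055 of *Lyz2*, 245 of *C1qb* and 28 of *Adgre1*. Forward embryos 2 and 3 had 38 and 43, 8 and 26, and 0 and 0. Reverse embryos had at most 5, 1 and 2 reads, so strain and parent cannot be told apart for these genes.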
